A study of Mus musculus with 6 samples.

Results

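The primary cilium is a microtubule-based antenna that carries Hedgehog signals, and 51 genes of its machinery were examined in cartilage cells that were or were not labelled by *Gli1*, a target gene of that pathway. The 51 genes were taken by symbol from a table of 54532 genes. They encode intraflagellar transport (IFT) complexes A and B, the motors that move them, KIF7 and the EvC complex, the BBSome and its recruiting GTPase, carriers of membrane proteins, the transition zone and the basal body. All 51 had 10 or more counts in at least 3 of the 6 libraries, and all 51 were among the 14801 genes tested.

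In the mice used, on a C57BL/6 background, the *Gli1* locus drives the tamoxifen-dependent recombinase CreERT2, and tamoxifen (TAM) switches on the red reporter tdTomato for good in cells that express *Gli1*. The mice (*Gli1-CreERT2; tdTomato*) were 1 month old and were taken a day after TAM. Costal cartilage is the tissue in the study's text, while its sample labels give growth plate. Cells lacking CD45, CD31 and Ter119, which mark leukocytes, endothelial cells and erythroid cells, were sorted into tdTomato+ (Gli1+) and tdTomato- (Gli1-) populations from the same mice, and each population was sequenced as 3 libraries numbered 1, 2 and 3. Both populations therefore carry the same alleles and received TAM, and a Gli1- cell is a cell that had not recombined the reporter, which may include cells with *Gli1* mRNA.

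Hedgehog ligands bind PTCH1, which then leaves the cilium, while SMO enters and accumulates in it. GLI transcription factors travel to the tip of the cilium, where they are changed from repressor to activator forms, so cells without IFT respond poorly to the ligand. Indian hedgehog is the ligand of growing cartilage, and inherited defects of IFT, dynein-2 and EvC genes cause skeletal dysplasias with short ribs.

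Ciliary genes of many animals carry an X-box, the binding motif of RFX transcription factors, in the promoter. The X-box core was searched as GTTGCCNNG or its reverse CNNGGCAAC in RefSeq promoter windows of GRCm38.p6, from 250 bases before to 50 bases after the start of the gene, in which N is any base. A window was given for 44 of the 51 genes, and 14 of the 44 (31.8%, 95% Wilson interval 20 to 46.6%) held the core. Among all 27025 genes with a window the share was 5.74%, and it was 6.45% among 10509 such genes tested here. The 14 were *Ift27*, *Ift57*, *Ift88*, *Wdr35*, *Dync2h1*, *Evc*, *Bbs1*, *Bbs7*, *Arl13b*, *Tctn1*, *Tctn2*, *Mks1*, *B9d1* and *Cep164*, so that IFT, motor, EvC, BBSome, trafficking, transition zone and basal body genes all had a member with the core. The 7 genes without a window were *Ift80*, *Ift81*, *Ift122*, *Dync2li1*, *Iqce*, *Efcab7* and *Tmem67*.

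In 6 genes the core lay before the RefSeq start. These stretches are shown, 5′ to 3′ on the strand of the gene, because a larger share of the cilium genes than of all genes with a window held the core. Capitals mark the core.
*Ift27* (chr15:78174082-78174115, minus strand): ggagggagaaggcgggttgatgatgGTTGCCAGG
*Ift57* (chr16:49699182-49699262, plus strand): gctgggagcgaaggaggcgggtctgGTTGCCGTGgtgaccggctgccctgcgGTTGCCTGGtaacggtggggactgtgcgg
*Evc* (chr5:37337034-37337092, minus strand): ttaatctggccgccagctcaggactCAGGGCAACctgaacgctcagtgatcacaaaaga
*Bbs7* (chr3:36613477-36613535, minus strand): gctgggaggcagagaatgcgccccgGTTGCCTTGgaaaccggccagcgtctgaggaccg
*Arl13b* (chr16:62847188-62847246, minus strand): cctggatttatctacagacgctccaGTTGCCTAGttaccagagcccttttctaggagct
*Mks1* (chr11:87853166-87853214, plus strand): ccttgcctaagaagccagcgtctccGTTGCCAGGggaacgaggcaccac
*Ift57* held the core at 2 places, and *Evc* held it in the reverse orientation. The core of *Ift27* and the second core of *Ift57* lay within the gene as the count table gives it, since that table places the start of these genes further upstream. In *Evc* the core began 186 bases before the start, in the 1604 bases between the ends of *Evc* and *Evc2*, which point away from each other.

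**Figure D1:**
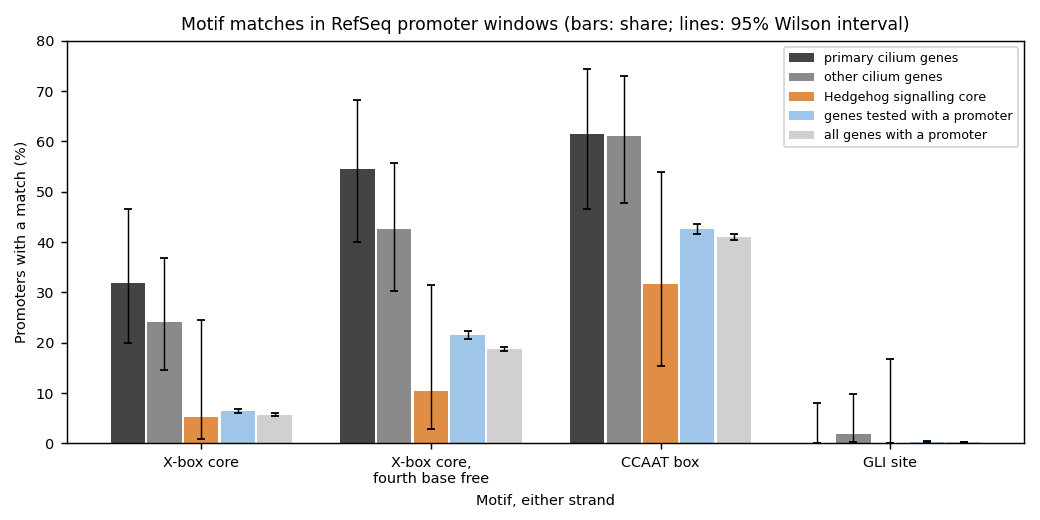
Share of genes with a promoter window that had a match to each motif (%, bars) and its 95% Wilson interval (lines). The sets are the primary cilium genes, other cilium genes, Hedgehog signalling genes, genes tested and all genes. The X-box core was in 31.8% of the cilium genes examined and in 5.74% of all genes. The GLI site was in 0.0% (interval up to 8.03%) and 0.289%, and 44 windows were too few to tell these shares apart.

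With the fourth base of the core left free (GTTNCCNNG), 24 of the 44 genes with a window (54.5%) matched, against 18.8% of all such genes. A second list of 63 cilium genes, none of them among the 51, had the core in 13 of 54 genes with a window (24.1%). A list of Hedgehog signalling genes had it in 1 of 19 (5.26%). A CCAAT box was in 61.4% of the 44 genes and in 41.1% of all genes with a window. The GLI site GACCACCCA, read on either strand, was in 0 of the 44 genes (interval up to 8.03%) and in 0.289% of all genes with a window. These are matches of letters in a fixed window.

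The libraries held 17114101 to 18602482 counts, and 15000 genes had a count in Gli1+ replicate 1 against 20666 to 23360 in the others. *Gli1* was at 4.09, 2.73 and 5.64 TPM (counts per gene length, rescaled to the same total in each library) in Gli1+ replicates 1, 2 and 3, and at 0.530, 0.514 and 1.85 TPM in Gli1- replicates 1, 2 and 3, so the populations did not overlap. The 18 chondrocyte markers listed were all tested, and *Col2a1*, the main collagen of cartilage, lay between 874 and 2990 TPM. By fold change 12 of these markers were lower in Gli1+ cells and 6 higher. Of 12 markers of fibroblasts and perichondrium 11 were lower and 1 was higher. A list of 14 dissociation stress genes had 13 lower and 1 higher, while 50.1% of all genes tested were higher. None of these listed genes passed edgeR's test after adjustment. The part of such differences in the cilium gene values was not tested. Gli1- replicate 1 stood apart through 10 neutrophil markers with a summed level of 18000 TPM, against 49.5 to 260 TPM elsewhere, and through macrophage markers at 1880 TPM, against 74.5 to 259 TPM. The defining neutrophil marker *Ly6g* was at 39.7 TPM there and at 0.0 to 0.197 TPM elsewhere. The 51 cilium genes together made 443 TPM in that library and 585 to 635 TPM in the other 5, and the part of the neutrophil RNA in this was not tested. In bulk RNA, fewer cells of a type and less RNA per cell cannot be told apart.

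Levels between genes were compared in TPM. The median cilium gene stood at the 32.3rd percentile of the genes tested. *Arl3*, which releases lipid-anchored cargo inside the cilium, had the highest mean level, 147 TPM, on a listed length of 822 bases. *Ift20*, an IFT-B subunit that also sits at the Golgi, followed at 79.1 TPM, and *B9d2*, a transition zone gene, at 26.2 TPM. *Arl13b* (21.9 TPM), *Kif3b* (21.4 TPM) and *Evc2* (21 TPM) came next and lay closer to each other than the spread between libraries. *Rpgrip1l*, which anchors the transition zone, had the lowest mean level of the 51, 0.586 TPM, just under *Wdr19* at 1.02 TPM. Genes of the same complex differed widely. In the EvC group *Evc2* had 21 TPM and its partner *Evc* 2.27 TPM, and in IFT-A *Ift43* had 19.3 TPM against 1.02 to 5.19 TPM for the other subunits. Within kinesin-II the motor subunits *Kif3b* and *Kif3a* were at 21.4 and 11.5 TPM and the accessory subunit *Kifap3* at 12.1 TPM.

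**Figure D2:**
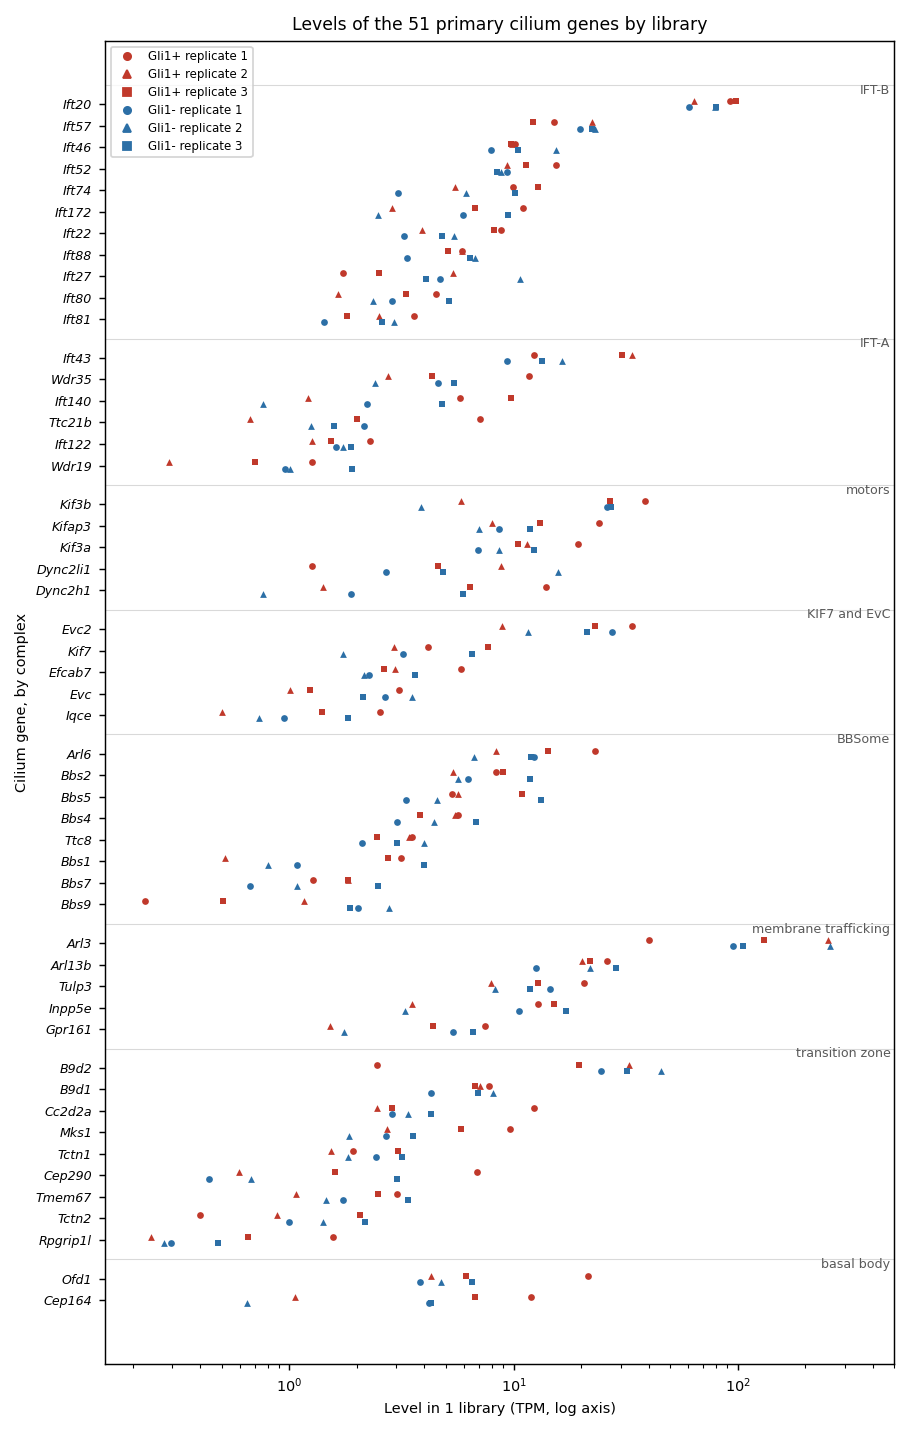
Level of each of the 51 cilium genes in each library (TPM, log axis), by complex and sorted by mean level, with Gli1+ libraries in red, Gli1- libraries in blue and the replicate number by symbol. Red and blue points intermingle for nearly every gene, and the levels run from 0.228 TPM (*Bbs9*, Gli1+ replicate 1) to 257 TPM (*Arl3*, Gli1- replicate 2).

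Comparing 3 Gli1+ with 3 Gli1- libraries asks whether *Gli1*-labelled cells differ in the machinery that brings the Hedgehog signal to GLI. None of the 51 genes passed the thresholds for a differentially expressed gene (DEG), and 0.0% of all genes tested did. The thresholds were a |log2FC| over 1 with an adjusted p under 0.05 in edgeR's quasi-likelihood test. The smallest adjusted p of that test over all genes was 0.9999, so it called no gene, *Gli1* included. The study did report DEGs between these populations at these thresholds, with a model that its text does not name. At an unadjusted p under 0.05 there were 0 of 51, against 514 of 14801 genes (3.47%), and DESeq2's Wald test also called 0 of 51 (30 genes, 0.203%), as did edgeR without a filter on low counts (267 genes, 0.936%). The log2FC, Gli1+ minus Gli1-, was above 0 in 28 cilium genes and below 0 in 23 (50.1% of all genes tested were above 0), with a median of 0.03 against 0.00 over all genes. In 39 of the 51 the log2FC was smaller than its own standard error, whose median was 0.61.

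The spread between libraries sets how much these values can say. The main fit took no account of the replicate numbers. Its 95% interval of the log2FC included 0 in 51 of 51 genes. The interval stayed within -1 and 1 in 2, *Evc2* and *Tulp3* (3.03% of all genes tested). For each of the others, a difference of more than 1 on the log2 scale in at least 1 direction remained within the interval. Without Gli1- replicate 2 the median log2FC was 0.37, and without Gli1- replicate 1, the library with neutrophil markers, it was -0.11. Its sign thus depended on single libraries.

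**Figure D3:**
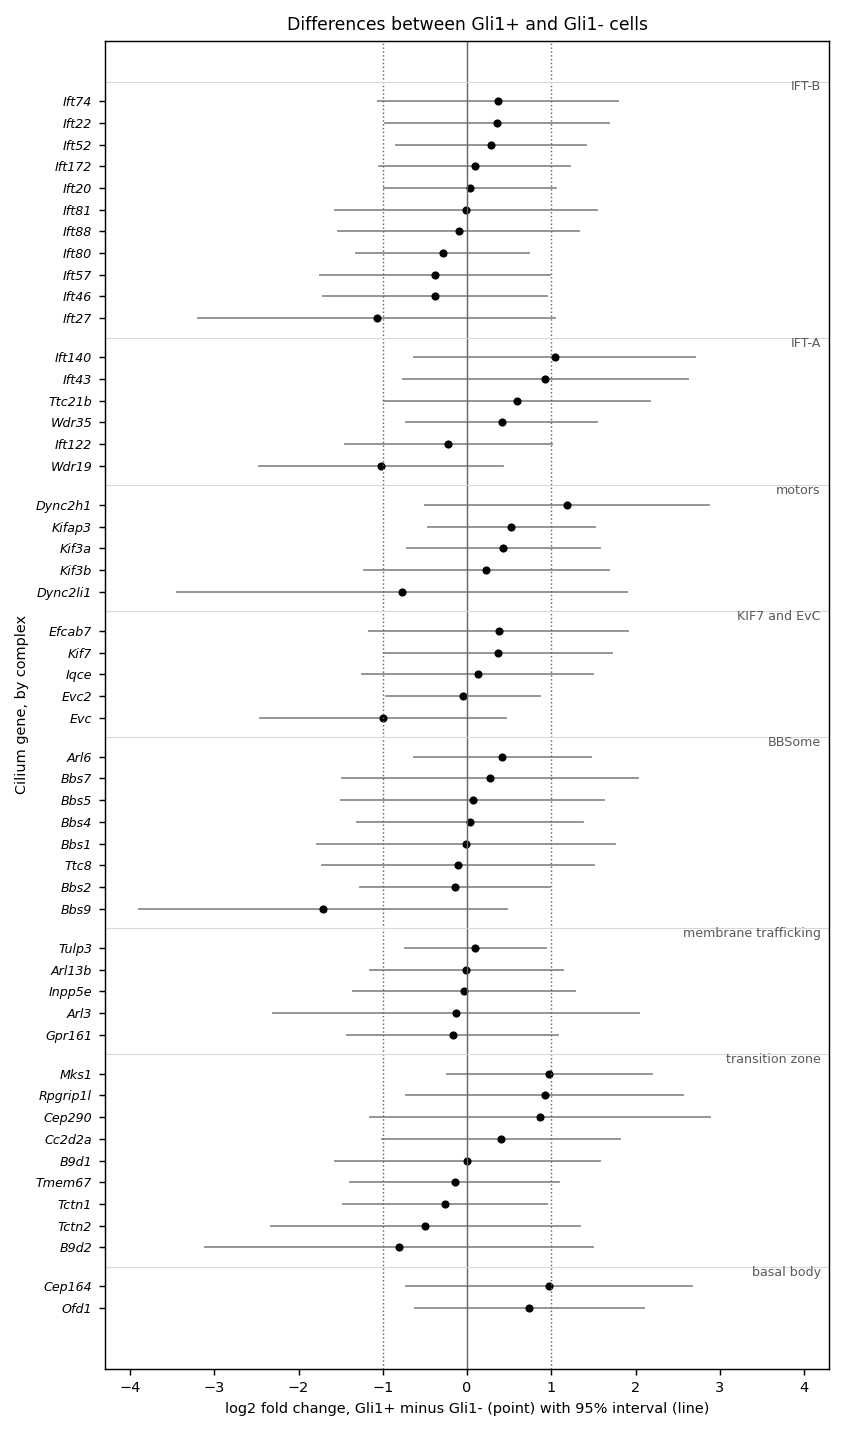
Difference between Gli1+ and Gli1- cells for each cilium gene (log2 fold change, points) with its 95% interval (lines), by complex, with dotted lines at -1 and 1. The intervals are those of the main fit, which took no account of the replicate numbers. Every interval crosses 0, and the points run from -1.71 (*Bbs9*) to 1.18 (*Dync2h1*).

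In 3 of 51 genes (5.88%) every Gli1+ library exceeded every Gli1- library on the scale of TMM-normalized CPM (counts rescaled to the size of the library), and in 0 of 51 the reverse held. Over all genes tested the shares were 4.04% and 4.45%, so the count was near the background. The 3 genes were *Kifap3*, *Arl6* and *Mks1*. In TPM, which is scaled in another way, 0 of 51 lay wholly above and 1, *Bbs9*, wholly below, against 3.09% and 5.01% of all genes. When libraries of the same number were paired, 15 of 51 genes (29.4%) had the same direction in 3 of 3 pairs, against 37.5% of all genes. Among the 15, Gli1+ values were the higher in 10 (19.6% of the 51) and the lower in 5 (9.8% of the 51), against 17.6% and 19.9% of all genes. Values by library are given below in CPM, always in the order of replicates 1, 2 and 3. They are given for these 3 genes and for the gene with the highest mean TPM of each complex, and the other genes shown by library were chosen after their values were seen. Coordinates are those of the count table, on mm10 (GRCm38).

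IFT-B carries cargo towards the tip of the cilium, and 11 of its genes were measured, 5 with a log2FC above 0 and 6 below. *Ift20* was at 31.4, 45.3 and 42.6 CPM in Gli1+ cells and at 25.4, 59.2 and 32.1 CPM in Gli1- cells. The populations overlapped throughout, and the log2FC was 0.03 (standard error 0.44). *Ift27*, which encodes a small GTPase that links IFT-B to export of SMO and PTCH1 by the BBSome, was at 1.11, 7.18 and 2.05 CPM against 3.67, 15.1 and 3.07 CPM. Gli1+ values were the lower in 3 of 3 pairs, but both replicate 2 libraries lay above the other 4, and its log2FC was -1.07 (standard error 0.92). *Ift57*, with the 2 X-box cores above, was likewise lower in 3 of 3 pairs, at a log2FC of -0.38 (standard error 0.59). Without Gli1- replicate 2 the log2FC of *Ift27* and *Ift57* was 0.006 and 0.010. The other subunits *Ift88*, *Ift52*, *Ift46*, *Ift74*, *Ift81*, *Ift80*, *Ift172* and *Ift22* lay between -0.38 and 0.37 on the log2FC scale.

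IFT-A returns cargo to the cell body and brings membrane proteins in, and 4 of its 6 genes had a log2FC above 0. *Ift43* was at 4.55, 25.9 and 14.2 CPM in Gli1+ cells and at 4.24, 13.4 and 5.82 CPM in Gli1- cells. Gli1+ values were the higher in 3 of 3 pairs, with little difference in pair 1, and the log2FC was 0.93 (standard error 0.73). *Ift140* was at 10.7, 4.73 and 23.1 CPM against 5.07, 3.12 and 10.5 CPM, again higher in 3 of 3 pairs (log2FC 1.04, standard error 0.73). Without Gli1+ replicate 2 the log2FC of *Ift43* was 0.257, and without Gli1+ replicate 3 that of *Ift140* was 0.298. *Wdr19* encodes the IFT144 subunit and ran the other way, at 3.17, 1.54 and 2.26 CPM against 2.95, 5.57 and 5.66 CPM (log2FC -1.02, standard error 0.63). *Wdr35*, *Ttc21b* and *Ift122*, the other subunits, were at 12.4 ± 5.65, 7.58 ± 6.20 and 5.26 ± 0.808 CPM in Gli1+ cells and at 9.34 ± 0.930, 5.02 ± 1.01 and 6.15 ± 2.28 CPM in Gli1- cells (SD, n = 3 each). Subunits of this complex stood on both sides of 0, and none of the 6 passed the test.

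Among the motors, kinesin-II drives IFT outwards and dynein-2 drives it back. *Kif3b* was at 48.1, 15.4 and 43.0 CPM in Gli1+ cells and at 40.1, 10.7 and 40.4 CPM in Gli1- cells. The replicate 2 libraries of both populations were the lowest, and the log2FC of 0.23 (standard error 0.63) was small beside that gap. *Kifap3* (ENSMUSG00000026585, chr1:163779583-163917109, plus strand) was at 21.5, 15 and 14.9 CPM against 9.41, 13.7 and 12.6 CPM. The lowest Gli1+ library stood only slightly above the highest Gli1- library, with a log2FC of 0.52 (standard error 0.43). The 2-sided exact permutation p was 0.1, the smallest that 3 libraries against 3 allow. Any gene whose libraries do not overlap has this p, so it adds nothing for *Kifap3*, *Arl6* or *Mks1*. *Dync2h1* (ENSMUSG00000047193, chr9:6928503-7184446, minus strand), the heavy chain of dynein-2, had the highest log2FC of the 51, 1.18 (standard error 0.73, unadjusted p = 0.145 in edgeR's test). It was at 51, 10.8 and 29.5 CPM against 8.43, 6.10 and 25.7 CPM, so that Gli1+ replicate 2 lay below Gli1- replicate 3. Without Gli1+ replicate 1 the log2FC of *Dync2h1* was 0.575. Its light intermediate chain, *Dync2li1*, had a log2FC of -0.77 (standard error 1.16), with 10.3 CPM in Gli1- replicate 2 and 0.370 CPM in Gli1+ replicate 1 as its extremes. The remaining kinesin-II subunit, *Kif3a*, was at 15.1 ± 4.29 and 11.2 ± 4.22 CPM (SD, n = 3 each).

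KIF7 and the EvC complex act on the Hedgehog signal itself. KIF7 organizes the ciliary tip where GLI proteins gather, and EVC and EVC2 relay the signal from SMO near the base of the cilium, where IQCE and EFCAB7 hold them. *Evc2* (ENSMUSG00000050248, chr5:37338499-37425055, plus strand) was at 43.7, 24.3 and 38.2 CPM in Gli1+ cells and at 43.7, 33.2 and 32.9 CPM in Gli1- cells, with a log2FC of -0.05 (95% interval -0.96 to 0.87). It is thus the best bounded of the 5 genes. *Evc* (ENSMUSG00000029122, chr5:37289098-37336894, minus strand), beside it on the opposite strand, was at 5.29, 3.62 and 2.68 CPM against 5.64, 13.3 and 4.34 CPM, lower in 3 of 3 pairs at a log2FC of -1.0 (standard error 0.63). Gli1- replicate 2 stood well above the other 5 libraries, and without it the log2FC of *Evc* was -0.41. *Kif7* was at 4.23, 6.26 and 9.98 CPM against 4.03, 3.91 and 7.88 CPM, higher in 3 of 3 pairs (log2FC 0.37, standard error 0.59). Of its exonic bases 19.1% overlap a gene on the other strand, 9330171B17Rik, which had a mean of 0.333 counts, and the use of strand in counting is not given in the sources used here. *Iqce* was at 4.79 ± 1.97 CPM in the Gli1+ and 4.39 ± 1.33 CPM in the Gli1- libraries, and *Efcab7* at 2.57 ± 0.782 and 1.98 ± 0.521 CPM (SD, n = 3 each).

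The BBSome is a coat that carries receptors such as SMO out of the cilium, and ARL6 recruits it to membranes. *Arl6* (ENSMUSG00000022722, chr16:59612949-59639391, minus strand) was at 10.7, 8.23 and 8.51 CPM in Gli1+ cells and at 7.08, 6.83 and 6.61 CPM in Gli1- cells. The populations did not overlap. The gap was narrow, with a log2FC of 0.42 (standard error 0.46). *Bbs9* (ENSMUSG00000035919, chr9:22475715-22888280, plus strand) had the lowest log2FC of the 51, -1.71 (standard error 0.95, unadjusted p = 0.109 in edgeR's test). It was at 0.317, 3.38 and 0.893 CPM against 3.46, 8.49 and 3.07 CPM, lower in 3 of 3 pairs, and only Gli1+ replicate 2 overlapped the Gli1- libraries. These values rest on 6, 55 and 17 counts in Gli1+ cells and on 67, 128 and 58 in Gli1- cells. The other 6 subunits, *Bbs1*, *Bbs2*, *Bbs4*, *Bbs5*, *Bbs7* and *Ttc8*, lay between -0.14 and 0.27 on the log2FC scale.

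Of the carriers of ciliary membrane proteins, *Arl3* was at 7.35, 97.1 and 30.5 CPM in Gli1+ cells and at 21.4, 104 and 22.9 CPM in Gli1- cells. The replicate 2 libraries were the highest in both populations, and the log2FC was -0.13 (standard error 0.95). *Tulp3*, which brings receptors such as GPR161 into the cilium together with IFT-A, had the smallest range over the 6 libraries on the log2 scale, at 42.9, 34.5 and 34.0 CPM against 37.1, 37.8 and 29.1 CPM. Its log2FC was 0.10 (95% interval -0.74 to 0.93). *Arl13b*, a GTPase of the ciliary membrane, averaged 36.6 ± 10.2 CPM in the Gli1+ and 36.8 ± 18.6 CPM in the Gli1- libraries (SD, n = 3 each). *Gpr161*, a receptor that holds the pathway off through cAMP, was at 8.37 ± 3.32 and 9.42 ± 3.14 CPM (SD, n = 3 each). *Inpp5e*, a phosphatase that keeps the lipid makeup of the ciliary membrane, was at 12.6 ± 5.72 and 12.9 ± 6.33 CPM (SD, n = 3 each), but 20.3% of its exonic bases overlap *Pmpca* on the other strand.

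The transition zone gates the base of the cilium, and the basal body anchors it. *Mks1* (ENSMUSG00000034121, chr11:87853215-87863803, plus strand) was at 8.73, 5.16 and 6.67 CPM in Gli1+ cells and at 3.0, 3.65 and 3.81 CPM in Gli1- cells. Every Gli1+ library exceeded every Gli1- library, with a log2FC of 0.97 (standard error 0.53, unadjusted p = 0.102 in edgeR's test). That was the lowest edgeR p of the 51. *B9d2*, whose product works in a complex with MKS1, was at 0.794, 22.3 and 8.09 CPM against 9.72, 32.6 and 12.3 CPM. It was lower in 3 of 3 pairs (log2FC -0.81, standard error 1.00), and Gli1+ replicate 1, with 15 counts, was far below every other library. *B9d1*, the other B9-domain partner, was at 3.69 ± 1.38 and 3.69 ± 2.32 CPM (SD, n = 3 each). The remaining transition zone genes were *Tctn1*, *Tctn2*, *Tmem67*, *Cc2d2a*, *Rpgrip1l* and *Cep290*, with a log2FC between -0.50 and 0.92. *Cep290*, a large scaffold between the microtubules and the membrane, had the widest values among them, 17.8, 3.25 and 5.25 CPM in Gli1+ cells and 1.40, 3.85 and 9.20 CPM in Gli1- cells, so its highest and lowest libraries were both replicate 1. *Ofd1*, a centriole gene on chromosome X, was at 21.3, 8.90 and 7.72 CPM against 4.65, 10.4 and 7.67 CPM (log2FC 0.74, standard error 0.59), so Gli1+ replicate 1 alone stood above Gli1- cells. *Cep164*, which builds the distal appendages that dock the basal body, was at 26.8, 4.97 and 19.1 CPM against 11.4, 3.18 and 11.3 CPM. It was higher in 3 of 3 pairs at a log2FC of 0.97 (standard error 0.74), and without Gli1+ replicate 1 the log2FC was 0.449.

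Libraries of the same number were treated as pairs, although a number is not stated to be a mouse, and the number was also fitted as a block. With it edgeR gave an unadjusted p under 0.05 for 4 of 51 genes (7.84%), *Ift27* and *Bbs9* with a log2FC below 0 and *Ift140* and *Cep164* above 0, against 8.61% of all genes tested, and called 0. DESeq2 with the block called 428 genes (2.89%), 0 of them among the 51, and *Bbs9* came nearest at an adjusted p of 0.0916. When replicate 1 was left out of both populations, edgeR with the block called 4 of 51 genes (7.84%), again near the share of all genes (7.83%). These were *Ift43* (log2FC 1.11, adjusted p = 0.000554) above 0, and *Wdr19* (-1.58, adjusted p = 0.00231), *Evc* (-1.31, adjusted p = 0.0039) and *Bbs9* (-1.53, adjusted p = 0.00371) below 0. DESeq2 on the same 4 libraries called *Ift43* and *Wdr19* alone (3.92%, against 5.09%). That fit holds 2 pairs of libraries only.

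In these genes replicate 2 stood further from the other replicates than Gli1+ from Gli1- cells. The median absolute log2 difference was 0.68 between replicate 2 and the other replicates and 0.32 between Gli1+ and Gli1- cells, and over all genes tested these medians were 0.86 and 0.42. Which cilium genes were high in replicate 2 went with their length. Among the 25 shorter genes (822 to 5390 bases) 21 were higher in replicate 2, with a median difference of 0.67, and among the 26 longer genes (5581 to 16348 bases) 10 were, with a median of -0.24. *Arl3*, *Dync2li1* and *B9d2* lay at the high end, with differences of 2.45, 2.73 and 2.30, and *Cep164*, *Kif3b* and *Dync2h1* at the low end, with -1.98, -1.73 and -1.54. Spearman's rho between length and this difference was -0.57 across the 51 genes and -0.39 across all genes tested, which share the same 6 libraries. The rho was -0.60 within Gli1+ and -0.49 within Gli1- libraries. Length and the log2FC between populations had a rho of 0.08. These correlations only describe the libraries, since genes are not independent replicates.

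**Figure D4:**
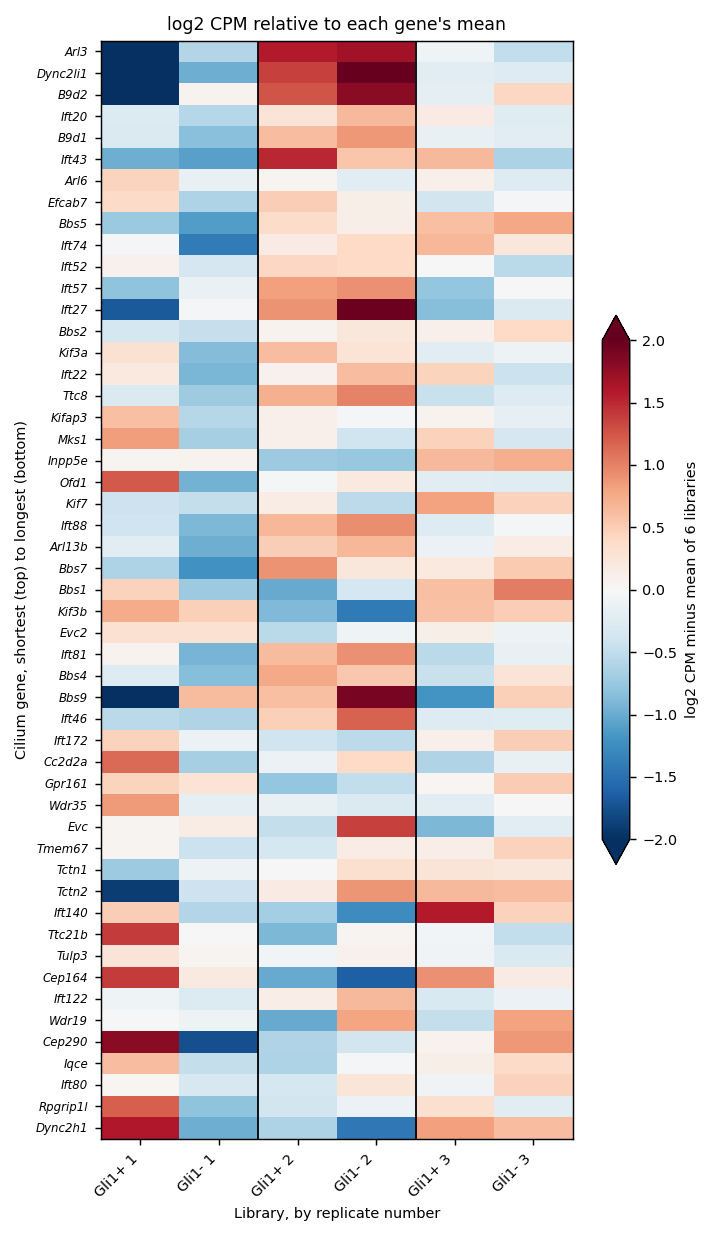
TMM-normalized log2 CPM of each cilium gene in each library relative to its mean over the 6 libraries (colour, cut at -2 and 2), with genes from the shortest at the top to the longest at the bottom and libraries side by side by replicate number. Among the 25 shorter genes 23 lie above their mean in Gli1+ replicate 2 and 20 in Gli1- replicate 2, and among the 26 longer genes 7 and 14 do, while Gli1+ replicate 1 has 9 of the shorter and 19 of the longer genes above the mean.

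**Figure D5:**
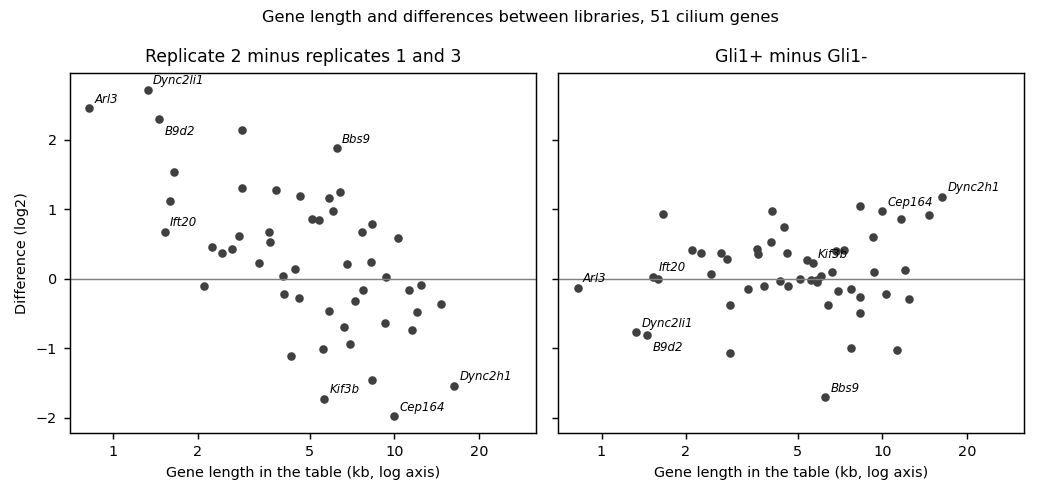
Gene length (kb, log axis) against the log2 difference between replicate 2 and replicates 1 and 3 (left) and between Gli1+ and Gli1- cells (right), 1 point for each of the 51 cilium genes. The left panel slopes downwards (rho -0.57) and the right panel is flat (rho 0.08).

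Genes with and without the X-box core lay on both sides of 0 in the comparison of populations. The 14 genes with it had a median log2FC of -0.01, with 6 above 0, and the 30 with a window but no core had a median of 0.16, with 20 above 0. Of the 14, only *Mks1* had libraries that did not overlap. Genes of the RFX family and other ciliary transcription factors were also measured. The most abundant were *Rfx1*, *Rfx5* and *Rfx7*, at means of 11.6, 11.3 and 10.1 TPM, while *Rfx2* and *Rfx3* were at 1.67 and 1.39 TPM. Of the 6 factors tested, which include *Foxj1*, 5 had a log2FC below 0. The exception was *Rfx7*, at 1.22, and 0 had an unadjusted p under 0.05 in edgeR's test.

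Among 14 of the 51 genes whose human counterparts cause skeletal dysplasias with short ribs, 7 had a log2FC above 0 and 7 below, and 0 passed. Beyond the 51, a list of 63 further cilium genes had 61 tested, of which 39 had a log2FC above 0, with a median of 0.13 and 0 at an unadjusted p under 0.05. Its most abundant genes were the dynein light chains *Dynlrb1* and *Dynll1*, at means of 170 and 116 TPM, and *Arl2bp*, at 103 TPM, which binds the ARL3 relative ARL2. Genes for cilium disassembly, among them *Nedd9* (mean 87.3 TPM), which activates Aurora A, had 9 tested, 8 of them above 0, with a median of 0.57 and again 0 at an unadjusted p under 0.05. Of a G2/M phase list, 18 of 18 genes tested had a log2FC above 0, with a median of 1.38. Of these, 4 had an unadjusted p under 0.05 in edgeR's test. Over all genes tested 50.1% had a log2FC above 0 and 3.47% had such a p. The disassembly and G2/M lists share 2 genes, *Plk1* and *Aurka*, and a link between the lists was not tested. Of 20 genes for motile cilia 7 passed the filter on low counts, and 6 had 3 counts or fewer in every library. *Cfap43*, at a mean of 80.5 TPM, was the one abundant member.

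Hedgehog genes upstream and downstream of the cilium were read from the same fit. Of 28 Hedgehog signalling genes 25 were tested and 0 passed after adjustment. An unadjusted p under 0.05 in edgeR's test was found for 3 of the 25, *Gli1* among them, against 514 of 14801 genes tested (3.47%). The cells were sorted by a reporter that the *Gli1* locus switches on, so the difference in *Gli1* is not a separate result. *Gli1* had a log2FC of 2.09 (unadjusted p = 0.0152 in edgeR's quasi-likelihood test). For *Hhip*, a membrane inhibitor induced by the pathway, it was 3.06 (unadjusted p = 0.00547 in edgeR's test), and for the co-receptor gene *Boc* -0.98 (unadjusted p = 0.0494 in edgeR's test). The receptor and target gene *Ptch1* was at 33.8, 3.75 and 10.4 TPM in Gli1+ cells and at 7.07, 1.66 and 8.76 TPM in Gli1- cells (log2FC 1.27, unadjusted p = 0.0819 in edgeR's test). *Smo*, the transducer that enters the cilium, had a log2FC of -0.16 (standard error 0.39). *Gli2* and *Sufu*, which act at the ciliary tip, had -0.15 (standard error 0.42) and -0.16 (standard error 0.57). *Gli3* was at 62.5, 4.31 and 23.4 TPM against 11.3, 2.95 and 16.6 TPM, at a log2FC of 1.34 (unadjusted p = 0.0979 in edgeR's test), and both of its lowest libraries were replicate 2. Whether the log2FC of the Hedgehog targets differed from that of the cilium genes was not tested.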

How the data were processed

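The authors deposited whole-number read counts per gene for 6 libraries, without normalization or pooling, and gene lengths. HISAT2 2.0.5, featureCounts 1.5.0-p3 and mm10 stand in the submitters' processing notes. The use of strand and the annotation are not given in the sources used here, so overlapping genes can share reads. Of 54409 genes found in GENCODE M21, 98.3% had its coordinates, as had 48 of the 51 cilium genes.

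Genes were filtered with filterByExpr (minimum count of 10), scaled by TMM and tested with edgeR 4.0.16 in R 4.3.3 (quasi-likelihood test, Benjamini-Hochberg adjustment over 14801 genes) at the thresholds of the study's Methods. Log2 CPM used a prior count of 2, and TPM was computed from counts and listed lengths. DESeq2 1.42.0 and limma-voom (limma 3.58.1) were alternatives, as were other scalings and filters, the replicate block, removal of a trend with gene length (lowess span 0.3) and each library left out. DESeq2 with the block without replicate 1, and overlap judged in TPM, were added after seeing the data. The scripts were tested on simulated data.

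Libraries were grouped by their titles. The study took both populations from the same mice. Deviations of libraries with the same number from their population means correlated across genes at 0.223, 0.720 and 0.471 for numbers 1, 2 and 3, all over 0.1, so libraries of the same number were treated as pairs. Of the combinations of unlike number, Gli1+ 1 with Gli1- 3 reached 0.274, above the value for number 1 itself, Gli1+ 3 with Gli1- 1 reached 0.107, and the others were below 0, so pair 1 is the least certain. A number is not stated to be a mouse, and p-values measure the spread between these libraries, which may be technical in part. The main test had no block.

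The cilium genes, lists, motifs and tests were chosen with earlier results of these data known. Values in every library were planned for cilium genes at an unadjusted p under 0.05 or with populations that did not overlap. They were also planned for those with the highest mean TPM of a complex or called in an alternative with all 6 libraries. The other cilium genes shown by library were chosen after their values were seen. Other lists are named by at most their 3 most abundant genes and those at that p, and *Gli1*, *Ptch1*, *Smo*, *Gli2*, *Gli3* and *Sufu* in any case. *Col2a1*, *Ly6g*, *Plk1*, *Aurka*, *Rfx2*, *Rfx3* and *Foxj1* were added. Promoter windows came from RefSeq (GRCm38.p6). Intervals of shares cover counting only.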

Additional observations from a re-analysis of the deposited data

How the results depend on the processing

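In the settings run that kept all 6 libraries 0 of the 51 cilium genes were called. Over all genes the number of DEGs was 0 with each other scaling, with 10 or more counts in at least 3 libraries, with limma-voom and with the length trend removed, but 267 without a filter on low counts, 30 with DESeq2, 428 with the replicate block and DESeq2, and 1201 (edgeR) and 781 (DESeq2) with the block without replicate 1, where 4 and 2 cilium genes were called. With the block, edgeR called 0 genes. The numbers of genes tested and of libraries differ between these fits, and the cause of the rest was not tested.
With a library left out, 5 to 12 cilium genes had populations that did not overlap (9.8 to 23.5% of the 51, against 13.7 to 26.9% of all genes tested), where fewer libraries had to be apart. Leaving out Gli1+ replicate 2 gave the 12. There were 9 (17.6%, against 22.5%) with the block without replicate 1 in either tool and 1 in TPM (1.96%, against 8.1%). The median log2FC of the cilium genes ran from -0.11 to 0.37 with a library left out, and stood at 0.10 with the block in edgeR, but at -0.145 (edgeR) and -0.146 (DESeq2) with the block without replicate 1. The X-box share was 54.5% with the fourth base free.
Of 21 genes followed through the alternatives, 10 changed the sign of the log2FC in 24 of 420 alternatives. With the block without replicate 1 it was 0.15 (edgeR) and 0.14 (DESeq2) for *Arl3*, -0.11 and -0.12 for *Ofd1*, and -0.002 with DESeq2 for *Ift20*. With the length trend removed that of *Tulp3* was -0.049, and -0.024 with the block. With a library left out the log2FC ran from -0.20 to 0.44 for *Ift20*, -2.21 to 0.006 for *Ift27*, -1.15 to 0.010 for *Ift57*, -2.04 to 0.90 for *Dync2li1*, -0.22 to 0.57 for *Kif3b*, -0.015 to 0.78 for *Kif7*, -0.25 to 0.15 for *Evc2*, -1.39 to 1.00 for *Arl3* and -0.04 to 0.15 for *Tulp3*. None of these was past a threshold. Cilium genes outside the 21 were not part of that count. With a library left out some of them changed sign too, as *Ift46* did (-0.75 to 0.34), and others, such as *Ift52* (0.10 to 0.59), did not.
The largest standard errors of the log2FC, 1.16 for *Dync2li1*, 1.00 for *B9d2*, 0.95 for *Bbs9* and 0.95 for *Arl3*, stood beside means of 55.8, 241, 55.2 and 785 counts, so the counts did not order them, and the cause was not tested.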
